A study of Mus musculus with 6 samples.

Results

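The neutrophil class comprised 175 of the 58794 annotated cells of 6 mouse liver tumors. Its members were the cells that the deposited cell table calls neutrophils, and all of them came from 1 cluster of an unsupervised clustering. All mice were wild-type male C57BL/6J with orthotopic tumors of H22, a mouse hepatocellular carcinoma line, and each mouse gave 1 library on the 10x Genomics platform. The 3 control mice were housed under standard conditions, and the 3 stressed mice underwent chronic unpredictable mild stress. The class held 4, 34 and 17 cells in control mice 1 to 3, and 14, 49 and 57 cells in stressed mice 1 to 3. It was compared with 6307 inflammatory myeloid cells (1 cluster) and 6260 monocytes (3 clusters) of the same tumors. Because the class was itself defined by clustering on gene expression, differences between it and these classes are descriptions and were given no test.

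Neutrophils develop from granulocyte progenitors through promyelocyte, myelocyte, metamyelocyte and band stages. Primary (azurophil) granule proteins such as myeloperoxidase and elastase are made first, while cells still divide, followed by specific granule proteins such as lactoferrin and cathelicidin, and then gelatinase granule proteins. Mature neutrophils leave the cycle, stop transcribing most granule genes and carry the chemokine receptor CXCR2, so granule transcripts mark the stage at which a neutrophil stands.

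Neutrophils of the class had a median of 5394 UMIs (unique molecular identifiers, each standing for 1 captured transcript), against 1547 in inflammatory myeloid cells and 5291 in monocytes. Levels are therefore given in CPM, the UMIs of a gene in 1000000 UMIs summed over all cells of a class. Log2 ratios were taken after adding 5 CPM to both levels. Mouse values are listed in the order control 1, 2, 3 and stressed 1, 2, 3, and control mouse 1 rests on 4 cells. The study removed doublets before annotation, and a second run of Scrublet on the annotated cells called 11 of the 175 cells doublets, 7 of them in stressed mouse 3. They were kept. Cell barcodes of 2 neutrophils also occurred among the annotated cells of another mouse.

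The class carried the S100 and specific granule markers of its label, but not every neutrophil marker was highest in it. Csf3r was lower than in inflammatory myeloid cells, Cxcr2 was nearly level with them, and Mpo and Elane rested mostly on 1 cell (levels below). S100a8 and S100a9, the subunits of calprotectin, were detected in 100% and 99.4% of the cells and together made up 17.7% of all UMIs of the class. The share was 2.41% in inflammatory myeloid cells and 0.0283% in monocytes. Of 12 markers of monocytes and macrophages, all were lower than in monocytes by a log2 ratio over 1, where 22.2% of the genes counted were. Csf1r stood at 14.6, Ccr2 at 24.0, C1qa at 10.3 and Adgre1 at 8.58 CPM, against 184, 207, 713 and 65.2 in monocytes. Against inflammatory myeloid cells 3 of the 7 markers counted were higher, where 10.1% of genes were, and 0 were lower. Among them were Ccr2 (3.44 CPM in inflammatory myeloid cells) and Ms4a6c at 36.9 against 6.19. Of 10 eosinophil, basophil and mast cell genes 1 reached 10 CPM, Ear2, an eosinophil-associated ribonuclease, at 16.3 (19 UMIs) against 0.993 in inflammatory myeloid cells and 34.8 in monocytes. Without stressed mouse 2, Ear2 did not reach 10 CPM in neutrophils or inflammatory myeloid cells. Epx, Prg2, Mcpt8, Cpa3 and Fcer1a were at 0 UMIs of 1165895, for which a count of 0 allows up to 2.57 CPM.

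Camp, Ngp and Ltf ranked highest by the rule for named genes (log2 ratio to the higher of both other classes), and the 3 genes lie within 1195 kb on chromosome 9. Camp encodes the cathelicidin antimicrobial peptide, Ngp a neutrophilic granule protein of the cystatin fold, and Ltf lactoferrin, an iron-binding protein. Their promoter windows are shown because these genes had the largest ratios to the other classes. Each window runs from 250 bases before to 50 after the RefSeq start (GRCm38.p6, given on the gene's strand), and capitals mark matches to TTGCNNAA, a C/EBP-like motif, on either strand.
Camp: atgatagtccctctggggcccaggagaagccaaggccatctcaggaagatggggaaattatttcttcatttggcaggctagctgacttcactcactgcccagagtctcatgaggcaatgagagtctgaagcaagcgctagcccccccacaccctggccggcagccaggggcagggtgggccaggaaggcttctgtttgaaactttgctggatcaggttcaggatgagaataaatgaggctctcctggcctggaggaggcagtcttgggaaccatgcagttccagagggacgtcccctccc
Ngp: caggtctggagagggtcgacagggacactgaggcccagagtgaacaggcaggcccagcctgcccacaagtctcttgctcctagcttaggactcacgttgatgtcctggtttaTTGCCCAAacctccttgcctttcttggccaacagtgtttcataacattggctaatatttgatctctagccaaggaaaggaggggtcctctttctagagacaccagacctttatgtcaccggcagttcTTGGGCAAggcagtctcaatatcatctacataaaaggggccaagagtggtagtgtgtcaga
Ltf: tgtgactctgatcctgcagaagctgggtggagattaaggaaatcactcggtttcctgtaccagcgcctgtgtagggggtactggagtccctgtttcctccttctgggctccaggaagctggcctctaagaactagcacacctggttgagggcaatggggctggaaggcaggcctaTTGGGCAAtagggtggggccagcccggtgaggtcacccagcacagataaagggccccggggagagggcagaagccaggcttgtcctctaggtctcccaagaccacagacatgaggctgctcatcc
Lcn2: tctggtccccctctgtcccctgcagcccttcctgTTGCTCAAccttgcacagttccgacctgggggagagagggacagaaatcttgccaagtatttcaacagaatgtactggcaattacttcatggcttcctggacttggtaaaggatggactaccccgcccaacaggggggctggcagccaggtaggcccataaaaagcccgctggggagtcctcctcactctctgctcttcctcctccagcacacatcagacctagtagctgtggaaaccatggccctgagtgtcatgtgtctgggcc
The Camp window is chr9:109849407-109849706 on the minus strand, the Ngp window chr9:110419558-110419857 and the Ltf window chr9:111019042-111019341, both on the plus strand. The last window is that of Lcn2, the siderophore-binding lipocalin of the same granules, at chr2:32387690-32387989 on the minus strand. The Ngp window held 2 matches, the Ltf and Lcn2 windows 1 each and the Camp window 0. RefSeq windows were found for 10 of 11 specific granule genes, and 5 of the 10 held a match, against 10.8% of all 32851 promoter windows. A match is a match of letters and says nothing about binding.

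Specific granule transcripts were the leading feature of the class. Camp stood at 10074, 24340 and 10174 CPM in the control mice and 22854, 31568 and 17532 in the stressed mice. In inflammatory myeloid cells it stood at 0.654, 16.7, 0.319, 4.64, 434 and 89.2, and in monocytes at 0.399, 57.3, 0.247, 0.275, 2.10 and 0.912. Every mouse had its highest level in neutrophils, with no overlap between the classes. In control mouse 1, 1 cell held 29558 of the 46653 UMIs of the class, and Camp, Ngp and Ltf were 0.355% of its UMIs. In control mouse 3, 1 called doublet held 30487 of 91410, with a share of 0.0262%. Both cells are part of the control levels of the class. Pooled over mice, Camp was at 22194 CPM, 334-fold over inflammatory myeloid cells and 1819-fold over monocytes. A Camp UMI was seen in 76.0% of neutrophils and in 0.586% of endothelial cells, a cell type that should lack it, at median depths of 5394 and 4538 UMIs. After every cell was thinned to 1000 UMIs, the shares were 72.0% and 0.148%, with 0 neutrophils, 984 inflammatory myeloid cells, 89 monocytes and 610 endothelial cells left out as shallower.

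Ngp followed the same order. Its level was 11339, 15658 and 9485 CPM in neutrophils of control mice and 17124, 19471 and 14845 in those of stressed mice. The pooled level of 15966 was 268-fold over inflammatory myeloid cells and 3782-fold over monocytes. Ltf was at 1650, 3450, 1324, 3172, 5263 and 4182 CPM, and its pooled level of 3984 was 82.0-fold and 1256-fold over the same classes. Camp, Ngp and Ltf together were 4.21% of the UMIs of the class. The little Camp outside the class was concentrated in few cells. Of the 870 Camp UMIs in inflammatory myeloid cells, 92.5% lay in 9 cells, and of the 500 in monocytes, 446 lay in 1 cell, in control mouse 2.

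**Figure D1:**
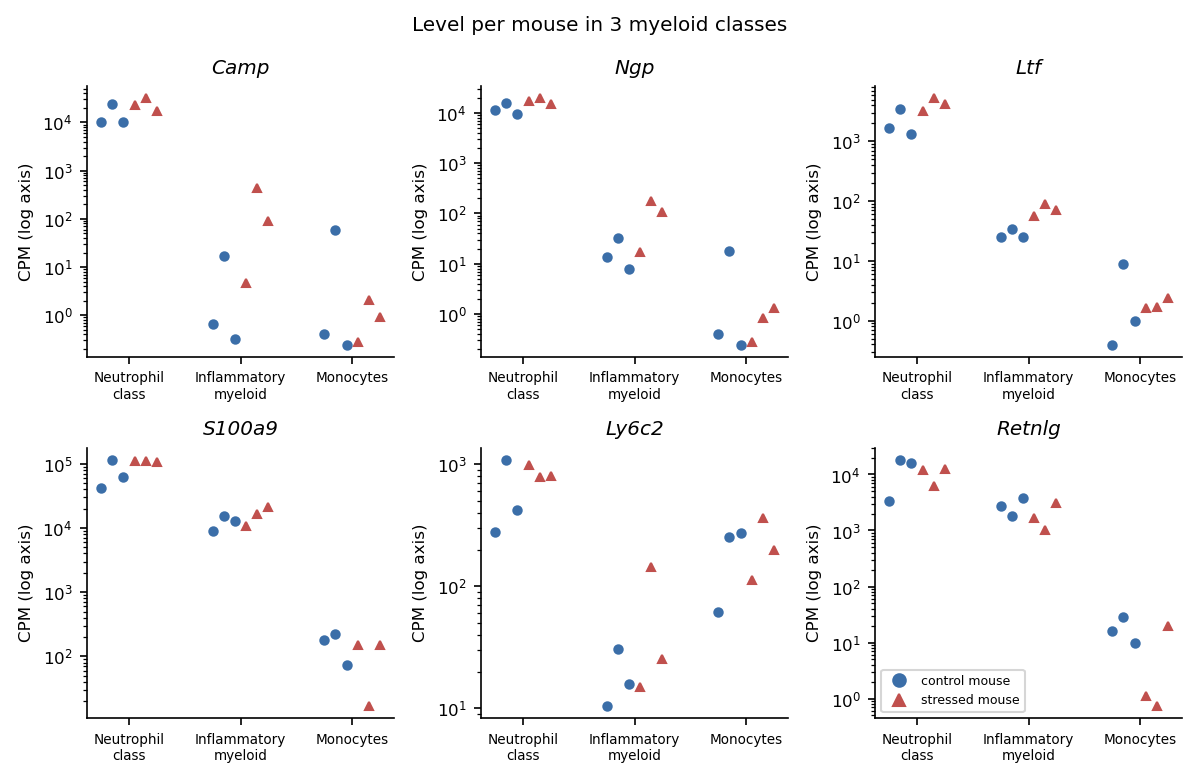
Level of 6 genes in each mouse (CPM of the class, log axis) for the neutrophil class, inflammatory myeloid cells and monocytes. Circles are control mice and triangles stressed mice. Camp, Ngp and Ltf were above 1000 in every mouse in neutrophils and under 500 in every mouse in the other classes. Retnlg and S100a9 were also high in inflammatory myeloid cells.

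The other specific granule genes were mostly higher in the class as well. Of the 11 specific granule genes, 10 were higher than in inflammatory myeloid cells by a log2 ratio over 1, where 10.1% of the 7870 genes counted were, and 11 of 11 were higher than in monocytes, where 8.17% of 8377 genes were. Genes were counted at 10 or more CPM in either class. The median log2 ratio of the list was 3.66 to inflammatory myeloid cells and 4.51 to monocytes, against -0.11 and -0.48 over all genes counted. Lcn2 stood at 8780 CPM (691 and 54.6 in the other classes), Chil3, a chitinase-like protein, at 3309 (438 and 912), and Anxa1, annexin A1, at 1414 (145 and 135). Olfm4, which marks a subset of neutrophils, was the exception at 61.8 against 34.9 in inflammatory myeloid cells, and was detected in 4.0% of neutrophils.

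Gelatinase granule genes were less one-sided against inflammatory myeloid cells. Of 7 genes, 4 were higher than in inflammatory myeloid cells and 6 higher than in monocytes, against 10.1% and 8.17% of all genes counted. Mmp9, gelatinase B, was at 658 CPM in neutrophils, 186 in inflammatory myeloid cells and 4.39 in monocytes. Slpi, a secreted protease inhibitor, was at 1207, 1542 and 219, so that its level in inflammatory myeloid cells was not below that in neutrophils.

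Primary granule genes were present in few cells. Of 7 genes counted, 6 were higher than in inflammatory myeloid cells and 6 higher than in monocytes, against 10.1% and 8.17% of all genes counted, with median log2 ratios over the list of 2.47 and 2.57. Elane, neutrophil elastase, was at 42.9, 192 and 0 CPM in the control mice and at 9.30, 134 and 791 in the stressed mice. The level in stressed mouse 3, and with it the pooled level, rested mostly on 1 cell. That cell held 721 of the 950 UMIs of Mpo, Elane, Prtn3 and Ctsg in the class (75.9%), and the next cell held 34. Without that cell Elane fell from 353 to 92.0 CPM and Mpo, myeloperoxidase, from 83.2 to 5.26, the latter below inflammatory myeloid cells (18.3) and monocytes (8.71). The counts fell without it too. Then 4 of 6 genes were higher and 1 lower than in inflammatory myeloid cells, and 3 of 5 higher and 1 lower than in monocytes. These shares were still above the 10.1% and 8.17% of all genes counted, and the medians were 1.06 and 0.57. The other 2 classes kept their own largest cells in this comparison. In inflammatory myeloid cells, 2 cells of stressed mouse 2 held 93.1% of the 1290 UMIs of the 4 genes, while in monocytes 899 cells held a UMI and the largest 2 cells held 46.0% of 3728. Ctsc, the protease that activates granule serine proteases, ran the other way, at 142 CPM against 1015 in monocytes.

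By the rule for named genes, the 20 genes furthest above both other classes began with Camp, Ngp and Ltf. Serpinb1a, an inhibitor of neutrophil serine proteases, was next at 479 CPM (8.33 in inflammatory myeloid cells and 3.88 in monocytes), followed by Fcnb, ficolin B, at 292 (3.59 and 1.07). Ifitm6 was at 1854 (58.1 and 52.9), Krt83 at 223 (2.75 and 0.0488) and Itgb2l, a beta integrin subunit, at 112 (0.917 and 0.122). Orm1, Ly6g, Cd177, Abca13, Ly6a2, Mgst2, Adpgk, Aff2, Lcn2, Ms4a3, 1700047M11Rik and Cebpe completed the list. Cd177, a surface protein of the specific granules, was at 655 CPM. Cebpe, the transcription factor required for specific granule genes, was at 123 (4.89 and 7.20). All 20 genes had their highest level in the neutrophil class among the 10 annotated cell types.

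**Figure D2:**
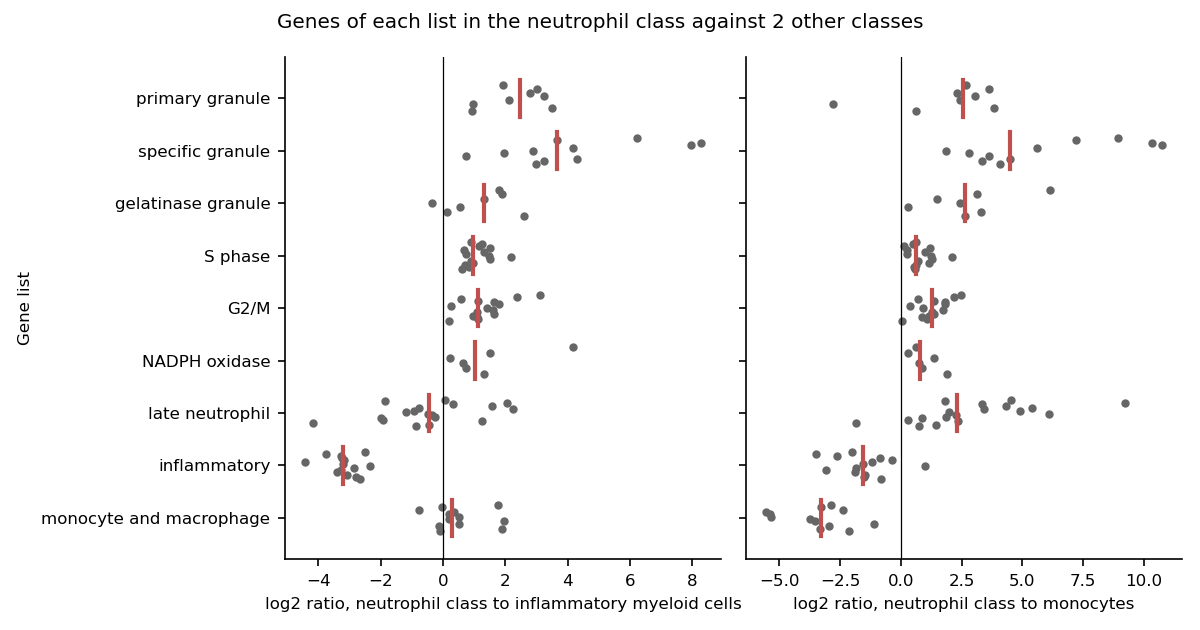
Log2 ratio of each gene's level in the neutrophil class to inflammatory myeloid cells (left) and monocytes (right), pooled over 6 mice with 5 CPM added. Points are genes and bars are list medians. Most granule genes lie to the right of 0, with Slpi to the left against inflammatory myeloid cells and Ctsc against monocytes. Inflammatory genes lie to the left, except Acod1 against monocytes, with a median of -3.19 to inflammatory myeloid cells. Late neutrophil genes have medians of -0.45 and 2.30.

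Ly6c2 separated the class from inflammatory myeloid cells more than from monocytes. Ly6c2 encodes a GPI-anchored Ly6C protein that also marks classical monocytes. It stood at 279, 1090 and 427 CPM in neutrophils of control mice and 995, 786 and 798 in those of stressed mice. In monocytes the values were 61.9, 256, 272, 114, 362 and 199. Each mouse was thus higher in neutrophils than in its own monocytes, taken over all monocyte clusters. In inflammatory myeloid cells the values were 10.5, 30.7, 16.0, 15.1, 144 and 25.4. The pooled level of 802 gave a log2 ratio of 4.50 to inflammatory myeloid cells and 1.72 to monocytes, with SDs over the 5 mice with 10 or more neutrophils of 1.21 and 0.94. B cells, at 443 CPM, came second among the 10 cell types. Ly6c2 was uneven among monocytes, where 219 cells with 10 or more Ly6c2 UMIs held 33.0% of the Ly6c2 UMIs. The monocyte clusters were not compared separately. Whether neutrophils exceed the monocytes richest in Ly6c2 was therefore not tested.

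Ly6c2 was detected in 86.9% of neutrophils, 38.2% of monocytes and 1.12% of endothelial cells, and after thinning to 1000 UMIs in 50.3%, 17.7% and 0.259%. Of the 152 neutrophils with a Ly6c2 UMI, 138 also held Ngp and 117 Ly6g, a surface protein of mouse neutrophils, while 9 held Ccr2 and 7 Csf1r. The near-identical Ly6c1 had 0 UMIs in the class. Reads of the pair can be misassigned, so the level of Ly6c2 is uncertain to that extent. Ly6g was at 425 CPM, 22.9-fold over inflammatory myeloid cells, and at 0.586 in monocytes. Ly6a and Ly6e, other Ly6 proteins, did not share this order, at 57.5 and 208 CPM against 319 and 658 in monocytes.

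Most G2/M genes, and fewer of the S phase genes, were higher in the class than in the other classes. Of the 14 G2/M genes counted, 11 were higher than in inflammatory myeloid cells and 10 higher than in monocytes, and of 15 S phase genes, 7 and 5 were, against 10.1% and 8.17% of all genes counted. The S phase counts moved with the cells included: without called doublets they were 12 and 7, and without stressed mouse 2 the count against monocytes was 2 of 14. The G2/M medians were 1.14 and 1.29, and the S phase medians 0.98 and 0.63, against -0.11 and -0.48 over all genes counted. In control mouse 3 the S phase genes made up 0.0219% of neutrophil UMIs, below inflammatory myeloid cells (0.0266%) and monocytes (0.0307%). Mki67, the Ki-67 proliferation antigen, was at 107, 154 and 0 CPM in the control mice and 65.1, 253 and 71.3 in the stressed mice. Top2a, topoisomerase II alpha, was at 171, 199, 43.8, 223, 396 and 183, above inflammatory myeloid cells and monocytes in each of the 5 mice with 10 or more neutrophils. Among all 10 cell types the pooled level of Mki67 was highest in the class (131, and 108 in NK/T cells), but without stressed mouse 2 the class was at 80.3 and below NK/T cells at 92.1. For Top2a the class stood below NK/T cells at 264, M-MDSCs at 246 and tumor cells at 246, and its place ranged from 1 without stressed mouse 3 to 5 without stressed mouse 2.

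The cycle transcripts came from a minority of cells that were also rich in granule transcripts. Cells with 10 or more UMIs over the 30 S and G2/M genes numbered 37, and 61 cells had none. Only 6 cells lay between 5 and 15 UMIs. These limits were chosen after the values were seen, so the following groups of cells were not tested. The 37 cells had a median of 11252 UMIs, which makes any given number of UMIs easier to reach. Of the 37, 7 were called doublets and 6 of these 7 held a UMI of the T cell genes Cd3d, Cd3e or Trac. Those 7 cells had 0 Camp UMIs.

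In the other 30 cycling cells Camp was at 36731 CPM and was detected in all 30, Ngp in 29 and Ltf in 28. Cebpe was detected in 26 of the 30 and stood at 257 CPM, and Fcnb in 26 at 877, against 81.3 and 33.6 in the non-cycling cells with granule transcripts that were not called doublets. Elane was found in 13 and Prtn3, proteinase 3, in 20 of the 30. Mmp8, a collagenase, was low at 38.2 although it belongs to the specific granule list, and so ran against Camp, Ngp and Ltf. The gelatinase granule gene Mmp9 was at 76.5, and the late neutrophil genes Cxcr2 and Retnlg, resistin-like gamma, were at 38.2 and 868. The 30 cells were spread over all mice, with 2, 5 and 1 in the control mice and 4, 13 and 5 in the stressed mice. Over the whole class, 13 of the 16 cells with Elane also held Mki67, and 27 of the 31 cells with Mki67 held Camp.

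**Figure D3:**
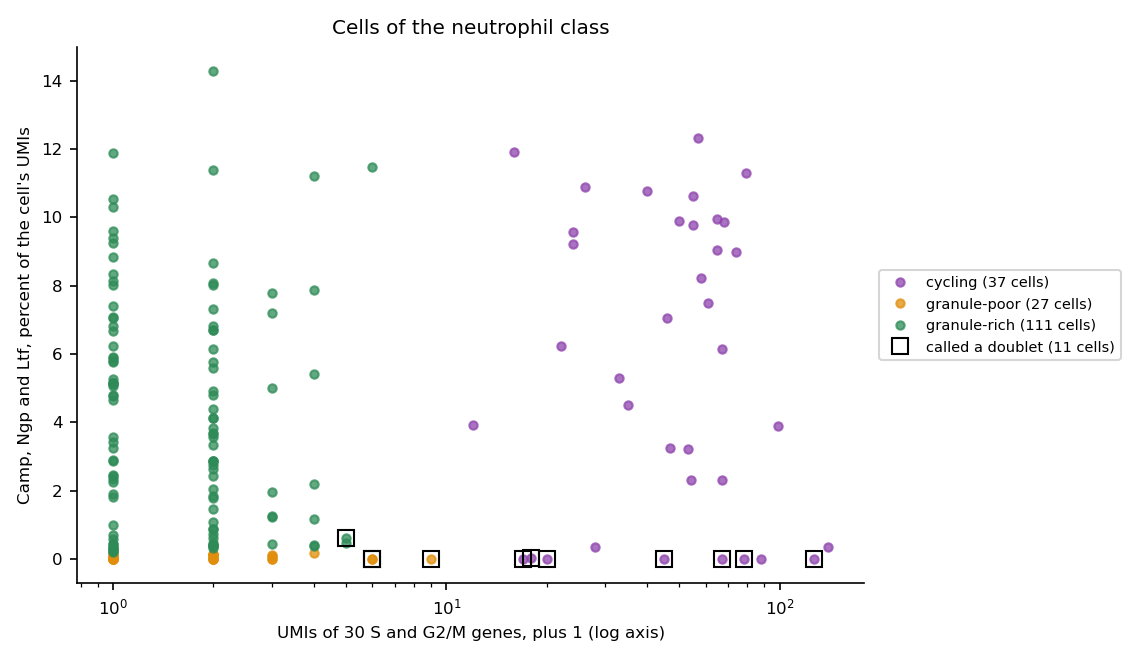
Each of the 175 cells by its UMIs of 30 S and G2/M genes plus 1 (horizontal, log axis) and the share of its UMIs from Camp, Ngp and Ltf (vertical, percent). Colors give the 3 groups of cells and squares the 11 called doublets. Of the 37 cycling cells, 7 are called doublets and lie at the bottom of the plot.

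The non-cycling cells divided by their granule transcripts. In 111 cells Camp, Ngp and Ltf made up 0.2% or more of the UMIs, and in 27 cells less, with 19 non-cycling cells within a factor of 2 of that limit. Levels are given without called doublets, which left 30 cycling, 110 granule-rich and 24 granule-poor cells. Camp, Ngp and Ltf drew the line between granule-rich and granule-poor cells, so their levels there follow from the split. The granule-rich cells had Camp at 21913 and Ltf at 5556 CPM, together with Mmp8 at 1752, Mmp9 at 1150, Ly6g at 714 and Retnlg at 17429. Mmp8, Mmp9, Ly6g and Retnlg stood at 38.2, 76.5, 134 and 868 in the cycling cells. The granule-poor cells had Camp at 56.5, Ltf at 0 and Ngp at 407 CPM, yet Mmp8 at 1853, S100a8 at 57043 and Retnlg at 30176. Cxcr2 was at 38.2, 230 and 429 CPM in cycling, granule-rich and granule-poor cells, and Csf3r, the G-CSF receptor, at 38.2, 154 and 362. Il1b, the inflammatory cytokine interleukin-1 beta, was at 330, 1166 and 4429.

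Without called doublets the granule-poor cells numbered 0, 4 and 8 in the control mice and 3, 6 and 3 in the stressed mice. In control mouse 3 they were 50% of the class, against 0% to 21.4% in the other mice. Over all 175 cells, the share of UMIs from specific granule genes correlated with the inflammatory list at a Spearman rho of -0.55 and with the late neutrophil list at -0.42. The cells share libraries, and UMIs per cell ran with both lists (rho -0.27 and -0.68).

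Late neutrophil genes were mostly higher than in monocytes and went both ways against inflammatory myeloid cells. Of the 18 genes measured, 14 were higher than in monocytes and 1 was lower, where 8.17% of genes counted were higher and 22.2% lower. Against inflammatory myeloid cells 4 were higher and 5 lower, where 10.1% were higher and 15.3% lower. Retnlg was at 3387, 18287, 15863, 12120, 6308 and 12718 CPM in neutrophils, 4.16-fold over inflammatory myeloid cells and 802-fold over monocytes when pooled. Cxcr2 was at 169 in neutrophils and 161 in inflammatory myeloid cells, with neutrophils higher in 2 of 5 mice, and at 2.49 in monocytes. Csf3r was at 152, 559 and 39.1 and G0s2, an inhibitor of lipolysis, at 5543, 7660 and 75.7. Ccrl2, a chemerin receptor, was at 117, 2181 and 432.

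Inflammatory genes were lower in the class. All 14 genes of the list were lower than in inflammatory myeloid cells, where 15.3% of genes counted were lower, with a median log2 ratio of -3.19. Against monocytes 10 of 14 were lower, where 22.2% of genes counted were. Il1b, Acod1 and Cxcl2 of this list also served as markers of inflammatory myeloid cells, so their direction against that class is not independent of its label. Cxcl2, a neutrophil-attracting chemokine, was at 450, 4200 and 6411 CPM in neutrophils of the control mice and 2967, 2198 and 4142 in those of the stressed mice, against 22024 to 46056 in inflammatory myeloid cells. Il1b was at 1311 CPM pooled, against 7383 in inflammatory myeloid cells and 5265 in monocytes. Acod1, the enzyme that makes itaconate, was the gene of the list above monocytes, at 511 against 255, and below inflammatory myeloid cells at 2611.

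Genes lowest in the class relative to both others were, by the rule for named genes, Cxcl1, Il1a, Clec4n, Ptgs2, Saa3, 4930430E12Rik, Clec7a, Hspa1b, Il23a and Gdf15. Cxcl1, another neutrophil chemoattractant, had 1 UMI in the class (0.858 CPM), against 158 CPM in inflammatory myeloid cells and 271 in monocytes. Clec7a, the beta-glucan receptor Dectin-1, was at 89.2, 665 and 881, and Ptgs2, cyclooxygenase-2, at 140, 1382 and 1234. Gdf15 had 0 UMIs, at least 14.7-fold lower than in inflammatory myeloid cells and at least 10.1-fold lower than in monocytes with the floor set at 3 UMIs over the class.

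Subunits of the NADPH oxidase, which makes the respiratory burst, were all detected. Of 6 genes, 3 were higher than in inflammatory myeloid cells, 2 higher than in monocytes and 0 lower than either. Of all genes counted, 10.1% and 8.17% were higher and 15.3% and 22.2% lower. Cybb, the catalytic subunit gp91phox, had the largest ratio to inflammatory myeloid cells, at 472, 1706 and 635 CPM in the control mice and 884, 1281 and 1103 in the stressed mice, against 59.9 in inflammatory myeloid cells and 757 in monocytes when pooled. The 2 genes higher than in monocytes were Rac2, a small GTPase of the complex, at 603 against 159, and Ncf1, the subunit p47phox, at 391 against 148. Genes used to describe granulocytic suppressor cells did not follow the granule genes. Of 8, 1 was higher than in inflammatory myeloid cells, a share near the 10.1% of all genes counted, and 5 were lower, against 15.3%, with Arg2 at 359 against 826 and Wfdc17 at 293 against 1709. The 1 higher gene, Arg1, was detected in 2.86% of neutrophils. Called doublets held 46 of its 55 UMIs. Without them 0 of the 8 genes were higher, and all but Arg1 were lower by a log2 ratio over 1. Against monocytes 1 was higher and 4 lower, where 8.17% and 22.2% of genes were.

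Transcription factors of the granulocyte and monocyte lineages differed by member. Of 7 genes counted against inflammatory myeloid cells 2 were higher and 2 lower, and of 8 against monocytes 1 was higher and 4 lower. The shares over all genes counted were 10.1% higher and 15.3% lower, and 8.17% and 22.2%, so 1 of 8 higher is near the background. Cebpb, a C/EBP factor of mature and emergency granulopoiesis, was at 2704 CPM in neutrophils, 5868 in inflammatory myeloid cells and 2459 in monocytes. Irf8, which directs progenitors to the monocyte lineage, was at 60.9, 11 and 272. Called doublets held 50 of its 71 UMIs, and without them it was at 20.6 against 8.22 in inflammatory myeloid cells, a log2 ratio of 0.95, so that 1 gene of the list, Cebpe, was higher. Klf4, another factor of monocytes, was at 31.7, 39.8 and 284. Spi1, which encodes PU.1, was nearly level at 341, 262 and 293. Gfi1, a repressor needed for neutrophil formation, was at 4.29 CPM (5 UMIs).

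Lymphocyte transcripts were present at a low level. The lymphocyte list had 4 genes counted, all higher than in both other classes, where 10.1% and 8.17% of all genes counted were. Nkg7, a cytotoxic granule protein, was at 178 CPM and Cd3d, a T cell receptor subunit, at 46.3. In inflammatory myeloid cells without called doublets, Cd3d, Cd3e, Trac and Nkg7 were at 2.52, 1.03, 1.31 and 4.77 CPM. Genes that low there are counted only through their level in neutrophils, so being higher follows in part from the filter. Without called doublets 2 genes were counted, of which 2 were higher than in inflammatory myeloid cells and 1 higher than in monocytes. Of the 30 cycling cells not called doublets, 14 held Nkg7, at 183 CPM, while Cd3d, Cd3e and Trac were at 0 there. A UMI of Cd3d, Cd3e or Trac was seen in 20 cells, 8 of them called doublets. Without those 20 cells the median log2 ratio of the list to inflammatory myeloid cells went from 1.43 to -0.33. The cells were picked by genes of the same list, so a fall was built into that choice. Among other lists, 0 tumor cell genes (4 and 5 counted) and 0 endothelial genes (7 and 7 counted) were higher than in inflammatory myeloid cells or monocytes. Lower were 4 and 3 tumor cell genes and 1 and 2 endothelial genes, where 15.3% and 22.2% of genes were. Without called doublets, Krt18, Cldn6 and Epcam had log2 ratios of -0.27, -0.40 and -0.10 to inflammatory myeloid cells and 0.55, 0.28 and 0.14 to monocytes. No erythroid or hepatocyte gene reached 10 CPM, so none was counted. The median log2 ratio of the dendritic cell list was -0.26 and -3.68. Of 7 progenitor genes 3 were counted, 0 of them higher than in either class and 1, Npm1, lower than in monocytes (390 against 924 CPM), where 22.2% of genes were lower. Without called doublets Cd63 of this list was higher than in monocytes, at 507 against 226 CPM (log2 ratio 1.15). Kit, the stem cell factor receptor, had 8 UMIs, and Cd34, Flt3 and Gata2 had 0.

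The share of neutrophils was then compared between stressed and control mice. It counts only the cells labeled neutrophils, and need not be the whole neutrophil content of a tumor. Late neutrophil genes made up 2.17% of UMIs in inflammatory myeloid cells, which are not counted, and 2.18% in the class. Neutrophils were 0.0380%, 0.289% and 0.184% of annotated cells in the control mice and 0.193%, 0.519% and 0.539% in the stressed mice. The ranges overlapped, since control mouse 2 lay above stressed mouse 1. The mean was 0.170% ± 0.126 (SD, n = 3) and 0.417% ± 0.194 (SD, n = 3), and the difference of 0.247 percentage points did not pass the test (exact permutation test, two-sided, p = 0.20, where 0.10 is the smallest p that 3 against 3 mice allow). As a share of the 4 myeloid classes (neutrophils, inflammatory myeloid cells, monocytes and M-MDSCs), the values were 0.413%, 1.20% and 0.702% against 1.64%, 2.28% and 1.48%. They did not overlap, and p = 0.10 was the smallest possible value of the same exact permutation test. A share of cells depends on how many cells of other types were recovered, and cell number and recovery cannot be told apart here.

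**Figure D4:**
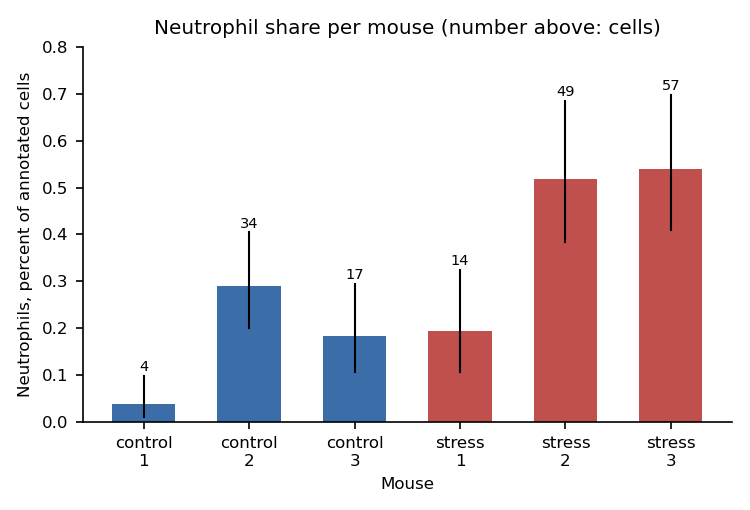
Cells labeled neutrophils as a percent of annotated cells in each mouse. Lines are exact (Clopper-Pearson) 95% intervals, which cover counting error only, and the number above each bar is the number of neutrophils. Bars run from 0.0380% in control mouse 1 to 0.539% in stressed mouse 3.

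Expression within the class was compared between stressed and control mice with edgeR on UMIs summed per mouse. Of 1821 genes that passed the low-count filter, 5 were higher in stressed mice (0.275%) and 0 lower (0%) at an adjusted p under 0.05. At an unadjusted p under 0.05 there were 130 genes, and DESeq2 called 11 higher and 4 lower. The 5 genes were Cmss1, Lars2, Gphn, Cdk8 and Camk1d. Cmss1 was at 64.3, 96.2 and 76.6 CPM in the control mice and 977, 1869 and 1547 in the stressed mice (log2 fold change 4.18 ± 0.49 (SE), adjusted p = 0.00601 by edgeR's quasi-likelihood test). Log2 fold changes of the other 4 were 3.05 to 3.49, with adjusted p from 0.0234 to 0.0302. The groups of mice did not overlap for any of the 5, as was the case for 235 of the 1821 genes tested (12.9%).

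The same difference was present in the other classes. Cmss1 was at 107, 119 and 125 CPM in inflammatory myeloid cells of the control mice and 1314, 2021 and 1894 in those of the stressed mice, and at 127, 111 and 120 against 946, 1197 and 1229 in monocytes. These 5 genes form a list that was taken up because earlier results of these data had them higher in the stress libraries, and their call is not independent evidence. Whether the size of the difference varies between classes was not tested. The control libraries were counted with Cell Ranger 9.0.0 and the stress libraries with 7.1.0 per the file headers, and stress and counting version cannot be told apart. Without control mouse 3, 0 genes were called, and without control mouse 1, which has 4 neutrophils, 1 gene was. The log2 fold changes of the 5 genes with 1 mouse left out ranged from 2.87 for Camk1d to 4.54 for Cmss1.

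**Figure D5:**
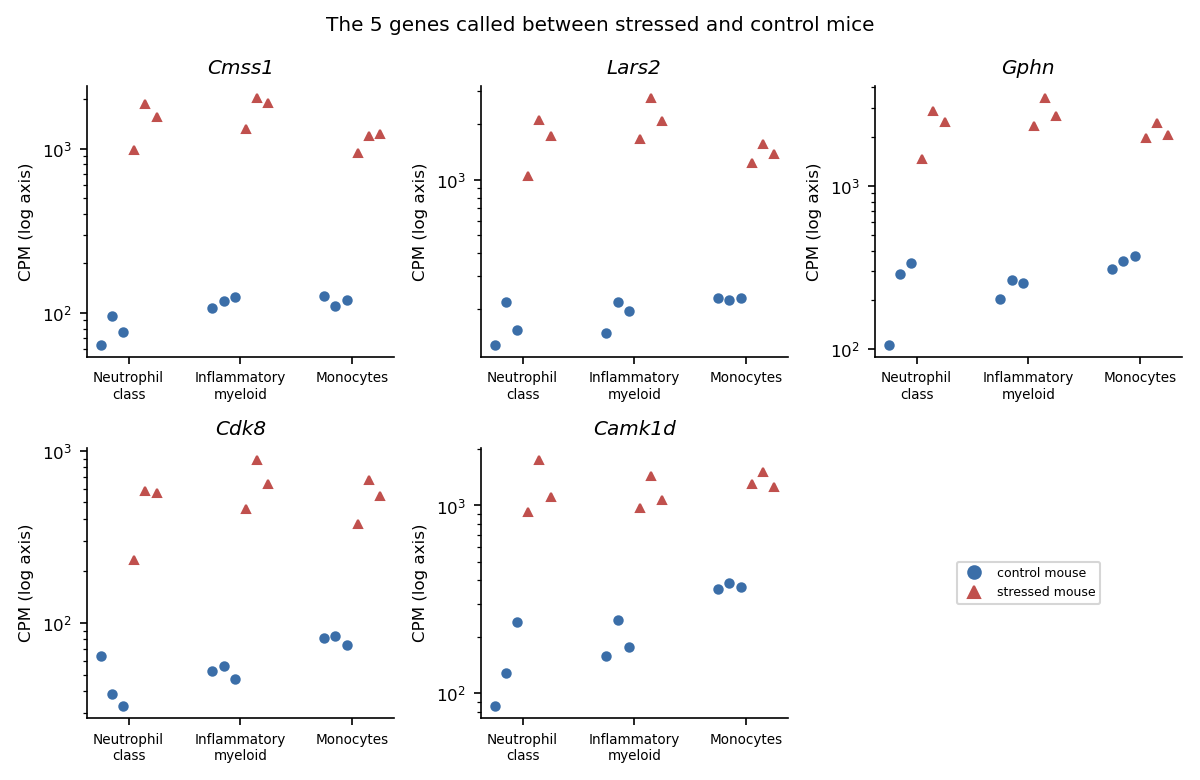
Level per mouse (CPM, log axis) of the 5 genes called between stressed and control mice, in the neutrophil class, inflammatory myeloid cells and monocytes. Circles are control mice and triangles stressed mice. For each gene the stressed mice lie above the control mice in all 3 classes.

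No gene of the granule, cycling or Ly6 lists passed the test. For scale, 130 of all 1821 genes tested had an unadjusted p under 0.05 by edgeR, and DESeq2 called 11 higher and 4 lower. Of 11 specific granule genes 10 were tested, with a median log2 fold change of 0.38, against -0.07 over all genes tested, and 0 had an unadjusted p under 0.05 by edgeR or were called by DESeq2. Ltf had the value 0.998 ± 0.48 (SE, adjusted p = 0.689, edgeR), Camp 0.72 ± 0.50 (adjusted p = 0.826, edgeR) and Ly6c2 0.52 ± 0.51 (adjusted p = 0.863, edgeR). The control sums include the deep cells of control mice 1 and 3 with low shares of Camp, Ngp and Ltf. All 7 gelatinase granule genes were tested and 0 were called by edgeR or DESeq2, with 2 at an unadjusted p under 0.05. These were Adam8, a metalloprotease, at 0.98 ± 0.40, and Itgam, the integrin CD11b, at 1.09 ± 0.44 (SE, adjusted p = 0.644 for both, edgeR). Of the primary granule and Ly6 lists 3 genes each were tested, and 0 had an unadjusted p under 0.05 or were called by DESeq2. Among cycling genes, 3 of 15 S phase and 6 of 15 G2/M genes were tested, 1 of them, Pcna, had an unadjusted p under 0.05 and DESeq2 called 0. Top2a had a log2 fold change of 0.98 ± 0.52 (SE, adjusted p = 0.719, edgeR). Of the other lists, 2 genes of the glucocorticoid response were tested and 0 were called by edgeR or DESeq2. Tsc22d3, a glucocorticoid-induced leucine zipper protein, had an unadjusted p under 0.05 and a log2 fold change of -1.17 ± 0.45 (SE, adjusted p = 0.617, edgeR). Of 12 inflammatory genes tested 0 were called by either tool, and Ccl4, a chemokine, had the value 3.96 ± 0.91 (SE, adjusted p = 0.146, edgeR). Nkg7 had the value 2.26 ± 0.78 (SE, adjusted p = 0.473, edgeR), and 7 of the 11 called doublets came from stressed mouse 3. The median SE over all genes tested was 0.45 on the log2 scale. The cycling cells were 50%, 17.6% and 11.8% of the class in the control mice and 28.6%, 28.6% and 15.8% in the stressed mice. Without called doublets the shares were 50%, 15.2% and 6.25% and 28.6%, 27.7% and 10%, and the ranges overlapped in both cases.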

How the data were processed

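Liver tumors of 3 control and 3 stressed mice gave 1 10x Genomics library each. The authors deposited unnormalized UMI counts for every gene in every cell, made with Cell Ranger on mm10, and a table that names the cell type and cluster of each annotated cell (Seurat, after removal of doublets with Scrublet and of cells over 20% mitochondrial UMIs or under 200 genes). The authors' matrix headers name Cell Ranger 9.0.0 for control and 7.1.0 for stress libraries. The annotation used for counting is not given in the sources used here.

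Cells were used as annotated. Doublets were called again with the Scrublet of scanpy 1.11.5 on the annotated cells of each library, and kept. UMI counts were summed per class, and per mouse and class. Gene lists and members were chosen with earlier results of these data known. Named genes were the list members, the 20 genes with the largest log2 ratio to the higher of the other 2 classes (at least 50 UMIs, 10% of neutrophils and every mouse with 10 or more neutrophils), the 10 with the lowest, and up to 10 genes per direction called between groups without overlap. The share was tested by an exact permutation test. The test of single genes used edgeR 4.0.16 (R 4.3.3) with filterByExpr, TMM scaling, quasi-likelihood F tests and Benjamini-Hochberg adjustment, and DESeq2 1.42.0 was an alternative. Its code was tested on simulated data first. The SE given with edgeR is the absolute log2 fold change divided by the square root of the F statistic, so it is approximate. Total UMIs of the class were 46653 to 420820 per mouse. Nothing says whether mice shared a cage or batch, so p-values measure the spread between these mice. Promoter windows came from the RefSeq table and gene positions from GENCODE M21 (GRCm38), and 32109 of 34099 gene identifiers matched. The gene BC100530 of the late neutrophil list was not found among the identifiers.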

Additional observations from a re-analysis of the deposited data

How the results depend on the processing

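Of 432 log2 ratios recomputed over 36 results (lists and genes against either class), 412 stayed within 1 SD over mice of the value given. Another 1 changed sign from a value past 1, that of the lymphocyte list to inflammatory myeloid cells. It was -0.33 without neutrophils holding T cell UMIs, an alternative chosen after seeing the data. Those cells were picked by genes of the same list, so a fall was built into it. Values nearer 0 also changed sign: Cxcr2 (-0.09 to 0.62) and the monocyte and macrophage list (-0.18 to 0.49) to inflammatory myeloid cells, and the lymphocyte list to monocytes (-0.13 to 1.45). The S phase median to inflammatory myeloid cells was 0.62 as a mean over mice and 1.65 without called doublets, and the specific granule median to monocytes was 6.10 with 1 CPM added. Leaving out 1 mouse at a time gave 3.52 to 4.26 for the specific granule list to inflammatory myeloid cells and 0.69 to 3.44 for the primary granule list to monocytes (1.05 to 4.42 to inflammatory myeloid cells), lowest without stressed mouse 3. Without its 1 cell with most of those UMIs, chosen after seeing the data, the value to monocytes was 0.57. Counts of list members and ranks among cell types without called doublets or a mouse, and levels of the groups of cells without doublets, were also chosen after seeing the data.

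The difference in share was 0.354 and 1.03 percentage points with the other denominators, and 0.181 to 0.359 with 1 mouse left out.

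The number of genes called between stressed and control mice was the least stable. It was 5 (5 higher, 0 lower), and 15 with DESeq2 (11 and 4), 70 without the low-count filter (49 and 21), 1 (1 higher, 0 lower) among mice with 10 or more neutrophils, and from 0 to 78 (0 to 28 higher, 0 to 50 lower) with 1 mouse left out, lowest without control mouse 3 and highest without control mouse 2. With the replicate number as a block it was 11 (10 and 1). Deviations of same-numbered mice correlated at 0.287, 0.209 and 0.0800. Mice with different numbers were not compared, so these values cannot decide whether the numbers pair the mice. The unpaired fit was kept as the main one. The block gave a mean difference in share of 0.247, with the exact permutation p for pairs at its smallest value, 0.250. The cause of these changes was not tested. The depth of 175 cells, 4 of them in control mouse 1, limits every comparison between groups, and pooled levels weight stressed mice 2 and 3 most.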
